A study of Xenopus laevis with 4 samples.

Results

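Aminoacyl-tRNA synthetase transcripts were examined in early gastrula embryos of the frog *Xenopus laevis*. These enzymes join each amino acid to its tRNA, which then carries it to the ribosome. The 36 gene models were picked by name from a table of 45098 models: a gene name of the form of *tars* or *wars2*, the additional names *eprs*, *farsa*, *farsb* and *tarsl2*, and no other suffix than .L or .S. *X. laevis* is allotetraploid, and these letters mark the homeologs of its 2 subgenomes. Models were taken as mitochondrial where the name ends in the digit of *wars2* and as cytosolic otherwise, which gave 11 mitochondrial and 25 cytosolic models of 23 gene names. This naming rule places *tarsl2* with the mitochondrial enzymes, although its mammalian counterpart is a cytosolic threonyl-tRNA synthetase.

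At the 1-cell stage, Gcn5-AS embryos received 0.8 ng of an antisense oligonucleotide directed at *gcn5* (*kat2a*), the gene of a histone acetyltransferase, and control embryos received water. Titles and knockdown labels gave the groups, since the treatment text of the controls repeats the Gcn5-AS injection, and no strain is named. Each of the 4 samples, 2 per group, was RNA of 10 embryos pooled at stage 10.5. The question is which transcripts differ in level between Gcn5 knockdown and water-injected embryos. The oligonucleotide is shown because it defines the Gcn5-AS group. It has 18 bases, and the capitals mark the 7 bases joined by unmodified linkages, between flanks with 11 linkages modified with dimethyl-ethylene-diamine, which makes the DNA stable in the embryo:
Gcn5-AS: tcaaaCACAAGCcgggtt

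In vertebrates, cytosolic and mitochondrial protein synthesis mostly use separate synthetases, all encoded in the nucleus. Single genes serve both compartments for glycine (*gars*) and lysine (*kars*) in mammals, and mitochondrial glutaminyl-tRNA is made from glutamyl-tRNA. Synthetases fall into class I and class II by the fold of the catalytic domain. Several cytosolic ones are held with scaffold proteins in a multisynthetase complex. Uncharged tRNA is sensed by the kinase Gcn2 with its partner Gcn1, which leads to translation of the transcription factor Atf4. In mammals, genes of several cytosolic synthetases are among the targets of Atf4.

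Reads assigned to genes ranged between 2351039 and 4093025 per library. Levels are given as normalised read counts, the reads of a model divided by the size factor of its library. The libraries are called X and Y within a group, since the table does not tie them to replicate numbers, and values are given for X and then Y. The labels leave unsaid whether the samples of a group are separate clutches or batches, and p-values therefore measure only a spread between samples that may be technical. No source mentions molecular identifiers, so reads are not counted as independent molecules. The targeted transcript was not called: *kat2a.L* had 52.9 and 62.6 in Gcn5-AS embryos, against 50.4 and 103.5 in controls, and *kat2a.S* had 13.7 and 35.5 against 27.9 and 45.7 (adjusted p = 0.742 and adjusted p = 0.445, limma-voom). The study itself reported depleted *gcn5* transcripts by RT-qPCR, and less Gcn5 at promoters by chromatin immunoprecipitation, in antisense-injected embryos. All 32 models on a list of early gastrula markers had reads, and 15 of 20 models of later tissues had none. Summed early gastrula markers came to 12176 and 10281 in Gcn5-AS embryos and to 5897 and 5974 in controls, a sum to which abundant models contribute most. Of 29 marker models tested, 23 were higher and 6 lower, with log2 fold changes between −0.55 and 1.97. By limma-voom 9 were called higher and 0 lower, beside 4.46% and 4.17% of all models tested. The study also reported that involution was affected in *gcn5* knockdown embryos, which arrested in development and showed some apoptosis, mainly ventrally. In whole embryos, fewer cells of a type and less RNA per cell cannot be told apart. The part of these marker levels and of this phenotype in the results below was not tested.

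Transcripts of the mitochondrial tryptophanyl-tRNA synthetase gene *wars2* rose in Gcn5-AS embryos from both homeologs, and those of *tars.L* (threonine) and *iars.S* (isoleucine), which encode cytosolic enzymes, fell. These 4 were the models called among the 27 synthetase models with a mean normalised count of at least 10, by limma-voom at an adjusted p under 0.1. The 2 models called higher compare with 4.46% of all 11272 models tested, and the 2 called lower with 4.17%. An unadjusted p under 0.05 was reached by 4 higher and 4 lower synthetase models, where 11.8% of all models were higher and 10.2% lower at that p. These counts lie near the background. Both Gcn5-AS libraries lay above both controls for 6 of the 27 models, where 26.3% of all models did so, and below both for 10, where 25.0% did. Across these 27 models the median log2 fold change was −0.22, beside 0.02 over all models tested.

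**Figure D1:**
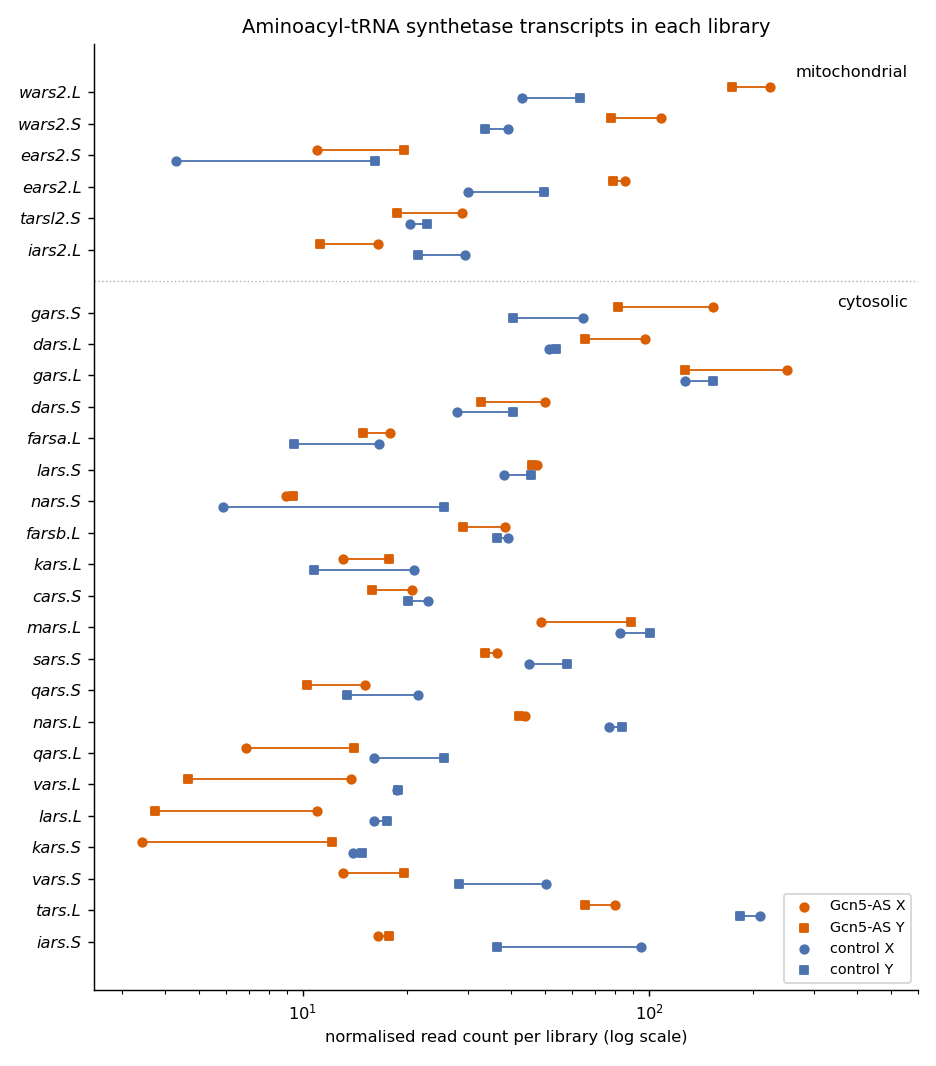
Normalised read count in each library (x axis, log scale) for the 27 synthetase models tested. Each model has its Gcn5-AS libraries (orange) above its control libraries (blue), circles are library X, squares are library Y, and a line joins the libraries of a group. The groups do not overlap at the 4 called models, *wars2.L*, *wars2.S*, *tars.L* and *iars.S*, and overlap in 11 of the 27 models. They overlap in 5482 of all 11272 models tested.

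Among the mitochondrial enzymes, *wars2.L* had 224.0 and 173.7 normalised counts in the Gcn5-AS libraries, against 42.9 and 63.2 in controls. The lower Gcn5-AS library thus lay well above the higher control. The log2 fold change was 1.96 (95% interval 1.17 to 2.75), or 3.89-fold, with an adjusted p = 0.00704 by limma-voom. Its homeolog *wars2.S* had 108.5 and 77.5 in Gcn5-AS embryos and 39.1 and 33.6 in controls, again without overlap. Its log2 fold change was 1.31 (0.48 to 2.15, adjusted p = 0.0623). With the reads of both homeologs summed, *wars2* was higher by a log2 fold change of 1.71 (0.99 to 2.43, adjusted p = 0.0236). This enzyme charges the mitochondrial tRNA for tryptophan. The cytosolic counterpart *wars* had no row under this name and was not analysed here. Without control X, the deepest library, neither homeolog was called (log2 fold changes of 1.63 and 1.43, adjusted p = 0.332 and adjusted p = 0.558). Without Gcn5-AS X or without control Y, *wars2.S* was not called (1.06 and 1.23, adjusted p = 0.290 and adjusted p = 0.304), and neither was it with scaling by reads outside the 10 most abundant models (adjusted p = 0.147). Scaling by total reads, under which the median of all models was −0.15, gave *wars2.L* a log2 fold change of 1.76 and *wars2.S* one of 1.16, and called neither (adjusted p = 0.103 and adjusted p = 0.401).

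The mitochondrial glutamyl-tRNA synthetase gene *ears2* was also higher but not called. *ears2.L* had 85.2 and 78.5 in Gcn5-AS embryos, against 30.0 and 49.8 in controls. The groups did not overlap, and the log2 fold change was 1.14 (0.31 to 1.98, adjusted p = 0.103), just outside the threshold. Without Gcn5-AS Y the value was 1.22, and without control X it was 0.71. *ears2.S* is represented by few reads, 16 and 21 in Gcn5-AS embryos and 8 and 12 in controls. Its normalised counts of 11.0 and 19.6 overlapped those of the controls, 4.29 and 16.1, with a log2 fold change of 1.196 (−0.23 to 2.62). Without control X that value turned to −0.20. Unlike *wars2* and *ears2*, *iars2.L*, encoding the mitochondrial isoleucyl-tRNA synthetase, was lower, with 16.5 and 11.2 in Gcn5-AS embryos against 29.5 and 21.5 in controls (log2 fold change −0.89, −1.98 to 0.21, adjusted p = 0.337). *tarsl2.S* overlapped between groups, with 28.9 and 18.7 against 20.4 and 22.9 (log2 fold change 0.16, −0.85 to 1.16), and its sign turned under both other scalings.

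Of the 11 mitochondrial models 5 stayed below a mean count of 10, and their normalised counts did not show the higher level of *wars2* and *ears2*. *rars2.S* (arginine) had 4.12 and 11.2 in Gcn5-AS embryos and 8.04 and 6.72 in controls. *pars2.L* (proline) had 1.37 and 1.87 against 9.11 and 2.69, and *sars2.L* (serine) had 0 and 0.934 against 3.22 and 1.34. *nars2.S* (asparagine) was found in 1 library of each group, with 6.18 in Gcn5-AS X and 4.82 in control X. No read was assigned to *tarsl2.L*, and a count of 0 allows for up to 3 reads, which is 2.06 and 2.80 normalised counts in Gcn5-AS embryos and 1.61 and 4.03 in controls, covering counting error only.

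The median log2 fold change of the 6 mitochondrial models tested was 1.17, with 5 higher and 1 lower. It was 1.196 over the 5 models without *tarsl2.S* and 0.65 over the 4 without *wars2*. The value without *wars2* was 0.38 under both other scalings and turned to −0.087, with 2 models higher and 2 lower, without control X. With a count minimum of 1, which admits low models just described, the mitochondrial median was −0.045 with *wars2* and −0.32 without it. A minimum of 50 left 3 models, *wars2.L*, *wars2.S* and *ears2.L*, with a median of 1.29. All 3 were called higher there, beside 320 of 4530 models. Among all 11 mitochondrial models, both Gcn5-AS libraries lay above both controls at *wars2.L*, *wars2.S* and *ears2.L*, and below both at *iars2.L*, *pars2.L* and *sars2.L*. Of the 6 mitochondrial models tested, 3 lay above and 1 below in this way, beside 26.3% and 25.0% of all models tested. The 3 above belong to *wars2* and *ears2* only. The count threshold left out *pars2.L* and *sars2.L*, and no background share was taken for such low models.

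**Figure D2:**
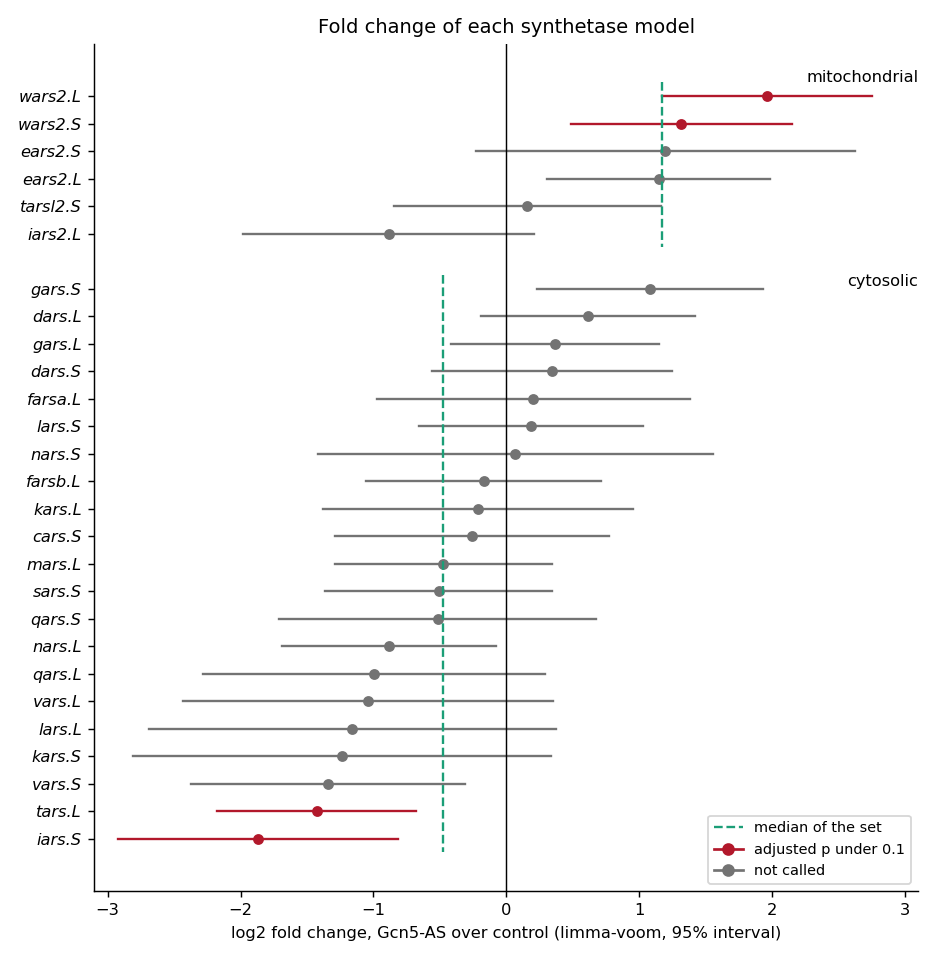
Log2 fold change of Gcn5-AS over control (x axis) for each tested synthetase model, with bars for the 95% interval of limma-voom. Red marks the 4 models with an adjusted p under 0.1, and green dashed lines mark the set medians of 1.17 (mitochondrial) and −0.47 (cytosolic).

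Of 21 cytosolic models tested, 14 were lower in Gcn5-AS embryos and 7 higher (median log2 fold change −0.47), where 49.0% of all models were lower. By the test 2 fell and none rose, beside 4.17% called lower and 4.46% called higher of all models. An unadjusted p under 0.05 was reached by 4 lower models and 1 higher one, beside 10.2% lower and 11.8% higher of all models. At a count minimum of 50 the cytosolic models were 3 higher and 3 lower, with a median of −0.062, beside 0.12 over all models. The 3 higher ones were *gars.L*, *gars.S* and *dars.L*, and *tars.L* was called lower there. So few models cannot show whether the well-counted ones share a direction. Under scaling by total reads the median was −0.62, in a setting where the median of all models was −0.15.

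*tars.L*, encoding the threonyl-tRNA synthetase, had 79.7 and 65.4 normalised counts in Gcn5-AS embryos, against 208.5 and 182.9 in controls. Both Gcn5-AS libraries, with 116 and 70 reads, lay far below both controls, with 389 and 136. The log2 fold change was −1.43 (−2.18 to −0.68), 2.69-fold lower, with an adjusted p = 0.0281. No S homeolog of this gene had a row under this name. Transcripts of *iars.S*, encoding the isoleucyl-tRNA synthetase, had 16.5 and 17.7 in Gcn5-AS embryos and 94.9 and 36.3 in controls. The Gcn5-AS libraries were close together, while the controls differed from each other by more than that. Its log2 fold change was −1.87 (−2.92 to −0.82), 3.65-fold lower, with an adjusted p = 0.0377. The homeolog *iars.L* lay just under the count threshold, with 9.62 and 0.934 against 17.7 and 9.41. Both calls were lost without control X (log2 fold changes of −1.33 for *tars.L*, adjusted p = 0.489, and −1.08 for *iars.S*, adjusted p = 0.764). Without control Y *tars.L* was not called (−1.52, adjusted p = 0.154), nor was *iars.S* without Gcn5-AS X (−1.83, adjusted p = 0.112). Scaling by total reads ended the call of *tars.L* (−1.58, adjusted p = 0.164) but not that of *iars.S* (−1.94, adjusted p = 0.0880).

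Isoleucine, leucine and valine, the branched-chain amino acids, are charged by closely related class I enzymes. The valyl-tRNA synthetase model *vars.S* had 13.1 and 19.6 in Gcn5-AS embryos, against 50.4 and 28.2 in controls. Its log2 fold change was −1.34 (−2.38 to −0.31, adjusted p = 0.120). The value was −1.61 without Gcn5-AS Y, −1.02 without Gcn5-AS X and −0.85 without control X. Its homeolog *vars.L* had 13.7 and 4.67 against 18.8 in both controls (−1.04, −2.43 to 0.35). With all 4 libraries neither was called, and in both the groups did not overlap. The leucyl-tRNA synthetase homeologs differed in direction, though both were lower with scaling by reads outside the 10 most abundant models. *lars.L* had 11.0 and 3.74 in Gcn5-AS embryos and 16.1 and 17.5 in controls (−1.16, −2.69 to 0.37), whereas *lars.S* had 47.4 and 45.8 against 38.1 and 45.7 (0.18, −0.66 to 1.02). The value of *lars.L* was −2.01 without Gcn5-AS X and −0.57 without Gcn5-AS Y, and both homeologs summed gave −0.095. Summed over the 6 branched-chain models, normalised counts were 111.3 and 92.5 in Gcn5-AS embryos against 235.9 and 156.0 in controls, a ratio of group means of 0.520.

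Other cytosolic models were lower without a call. *nars.L* (asparagine) had 44.0 and 42.0 in Gcn5-AS embryos, against 76.7 and 83.4 in controls. This was a difference larger than the spread within either group, with a log2 fold change of −0.88 (−1.69 to −0.08) and an adjusted p = 0.188. *kars.S* (lysine) had 3.44 and 12.1 against 13.9 and 14.8 (−1.24, −2.81 to 0.34), a value that was −0.21 without Gcn5-AS X and −0.52 with homeologs summed. *qars.L* (glutamine) had 6.87 and 14.0 against 16.1 and 25.6 (−0.996, −2.28 to 0.29), and *sars.S* (serine) had 36.4 and 33.6 against 45.0 and 57.8 (−0.51, −1.36 to 0.35). *kars.S* rested on 5 to 26 reads per library and *qars.L* on 10 to 30, and for both the Gcn5-AS libraries differed widely from each other. The remaining lower models *mars.L*, *qars.S*, *cars.S*, *kars.L* and *farsb.L* had log2 fold changes between −0.52 and −0.17 and overlapped between the groups.

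Higher values among cytosolic enzymes were found for glycine and aspartate. The glycyl-tRNA synthetase model *gars.S* had 153.2 and 81.3 in Gcn5-AS embryos, against 64.3 and 40.3 in controls, with no overlap. Its log2 fold change was 1.08 (0.23 to 1.93, adjusted p = 0.127), and without Gcn5-AS Y the value was 1.51. Without Gcn5-AS X it was 0.60, and with homeologs summed it was 0.59 (adjusted p = 0.353). *gars.L* had 250.8 and 127.0 against 127.0 and 153.3 (0.37, −0.42 to 1.15), and without Gcn5-AS X, its highest library, the value was −0.13. The aspartyl-tRNA synthetase models *dars.L* (97.6 and 65.4 against 51.5 and 53.8) and *dars.S* (50.2 and 32.7 against 27.9 and 40.3) had log2 fold changes of 0.61 (−0.19 to 1.42) and 0.34 (−0.56 to 1.24). The phenylalanyl-tRNA synthetase is made of an alpha and a beta subunit. The alpha subunit model *farsa.L* had 17.9 and 14.9 against 16.6 and 9.41 (0.20, −0.97 to 1.38), with a sign that turned when scaled by reads outside the 10 most abundant models, and the beta subunit model *farsb.L* had 38.5 and 29.0 against 39.1 and 36.3 (−0.17, −1.05 to 0.71). *nars.S*, with 8.93 and 9.34 against 5.90 and 25.6, had a fitted value of 0.07 but a lower group mean in Gcn5-AS embryos, since its controls differed widely.

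The count threshold of 10 left out 4 cytosolic models. Just inside it were *kars.S* with a mean of 11.1 and *lars.L* with 12.1, and just outside it *sars.L* with 9.46 and *iars.L* with 9.41. *rars.S* (arginine) had 2.06 and 6.54 in Gcn5-AS embryos, against 15.01 and 9.41 in controls, and *sars.L* had 4.12 and 14.9 against 10.7 and 8.07. For *farsb.S* a single read was assigned in 1 library, control Y.

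The cytosolic models were also sorted by features that their choice did not use. Of 9 cytosolic class I models, 8 were lower, with a median log2 fold change of −0.996, and 1, *iars.S*, was called. Of 12 class II models 6 were lower and 6 higher, with a median of −0.05, and *tars.L* was called. Without Gcn5-AS Y these medians were −0.57 for class I and 0.02 for class II. Of the 9 class I models, 5 are the branched-chain models described above, with a median of −1.16, so the class contrast partly restates them. At a count minimum of 50, only 1 class I model was left, beside 5 of class II. Of all models tested, 4.17% were called lower. Both Gcn5-AS libraries lay below both controls for 5 class I and 4 class II models, where 25.0% of all models tested did so. Normalised counts of all cytosolic class I models summed to 204.7 and 227.9 in Gcn5-AS embryos and to 394.0 and 325.4 in controls, without overlap, and those of class II models to 797.6 and 545.5 against 708.2 and 718.1, with overlap. Members of the multisynthetase complex (*dars*, *iars*, *kars*, *lars*, *mars*, *qars* and *rars* here) had 7 of 10 models lower with a median of −0.50, and the other cytosolic enzymes 7 of 11 with a median of −0.26. Without Gcn5-AS X the order of these medians turned, to −0.11 for the complex and −0.46 for the others, and without control X it did so too, to −0.36 and −0.72. Whether any of these subsets differ was not tested.

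Summed over models, the balance of mitochondrial to cytosolic synthetase transcripts differed between the groups. The mitochondrial models came to 485.7 and 393.2 normalised counts in the Gcn5-AS libraries, against 191.4 and 217.9 in controls. The cytosolic models came to 1002 and 773 in Gcn5-AS embryos, against 1102 and 1044 in controls. Mitochondrial reads thus equalled 48.5% and 50.8% of cytosolic ones in Gcn5-AS embryos and 17.4% and 20.9% in controls, and this ratio within a library does not depend on scaling. Of the mitochondrial sum, *wars2* made up 68.5% and 63.9% in Gcn5-AS embryos and 42.9% and 44.4% in controls. Without *wars2* the percentages were 15.3% and 18.4% against 9.92% and 11.6%, closer together but without overlap. Of the normalised counts left, 153.2 and 142.0 in Gcn5-AS embryos, *ears2* made up 96.2 and 98.1. In controls it made up 34.3 and 65.9 of 109.4 and 121.0. The remaining mitochondrial models were not higher in sum in Gcn5-AS embryos, so the mitochondrial part of the difference lay in *wars2* and *ears2*. All these sums depend on the naming rule, which counts *gars* and *kars* as cytosolic and *tarsl2* as mitochondrial and leaves out *yars2-like.L*. Of the cytosolic sums, *gars* made up 404 and 208 normalised counts in Gcn5-AS embryos and 191 and 194 in controls. With 2 libraries per group an exact permutation test cannot go below p = 0.333, so no p is given.

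**Figure D3:**
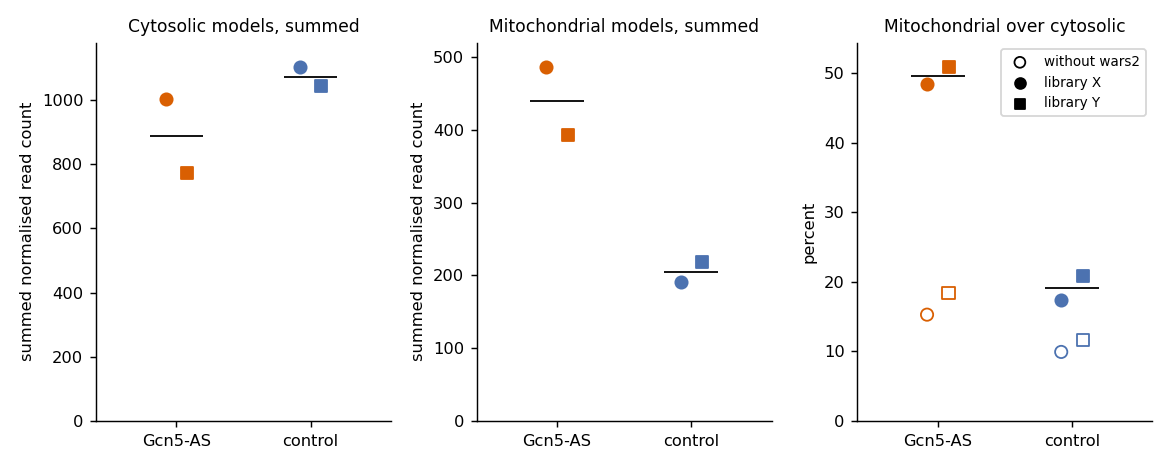
Normalised read counts summed over the 25 cytosolic models (left panel) and the 11 mitochondrial models (middle panel), and their ratio in percent (right panel), in each Gcn5-AS (orange) and control (blue) library. Circles are library X, squares library Y, horizontal lines group means of the filled symbols, and open symbols in the right panel leave out *wars2*. The ratio lies at 48.5% and 50.8% in Gcn5-AS embryos and at 17.4% and 20.9% in controls.

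Of 9 synthetase genes with both homeologs tested, 7 had the same sign for L and S, the exceptions being *lars* and *nars*. This share of 77.8% is near the 73.8% of all 2286 homeolog pairs tested. Neither exception held in every setting. At a count minimum of 1 *nars.S* was lower (−0.092), and with scaling by reads outside the 10 most abundant models both *lars* homeologs were lower. For *wars2*, the L homeolog took 67.4% and 69.1% of the reads of the pair in Gcn5-AS embryos, and 52.3% and 65.3% in controls. For *gars*, it took 62.1% and 61.0% against 66.4% and 79.2%. The counting may divide reads between near-identical homeologs in error, which limits how far a pair counts as separate values. With homeologs summed, *wars2* was called higher, and *tars* (log2 fold change −1.43, adjusted p = 0.0433) and *iars* (−1.76, adjusted p = 0.0676) were called lower.

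**Figure D4:**
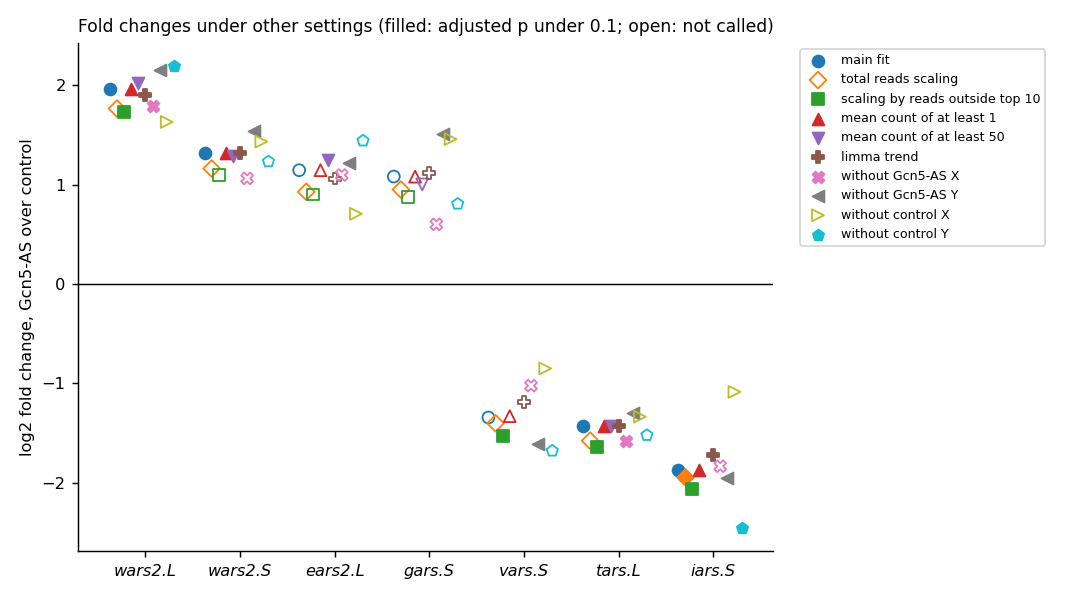
Log2 fold change (y axis) of 7 synthetase models under the main fit, other scalings, count filters and tests, and without each library in turn. Filled symbols have an adjusted p under 0.1 and open symbols do not. Signs are kept throughout, while no model is filled without control X. Over all models too, calls were fewest without control X and most without Gcn5-AS Y.

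Genes that work with the synthetases were examined on 7 lists. Of the tested models, none was called on 5 of them: the complex scaffold, partners of mitochondrial aminoacylation and translation, processing of mitochondrial tRNA, tRNA editing, release and export, and the selenocysteine tRNA pathway. At an unadjusted p under 0.05, 10.2% of all models were lower and 11.8% higher. Among the 19 tested models of these 5 lists 2 reached that p, both lower, which lies near the share of lower models. They were *xpot.S*, encoding the tRNA exporter exportin-t, with 48.1 and 58.8 in Gcn5-AS embryos against 100.2 and 113.0 in controls (log2 fold change −0.996, −1.78 to −0.21, adjusted p = 0.128), and *trmt61b.L*, encoding a mitochondrial tRNA methyltransferase, with 10.3 and 14.9 against 24.1 and 35.0 (−1.19, adjusted p = 0.201). The scaffold gene *aimp2* had 34.4 and 47.6 against 82.6 and 56.5 for *aimp2.L* and overlapping values for *aimp2.S*. Partners of mitochondrial translation as a list did not follow *wars2*, with 2 models higher and 3 lower and a median of −0.18. The smallest p on that list was that of a higher model, *ptcd3.L*. It had 28.2 and 19.6 in Gcn5-AS embryos against 12.3 and 5.38 in controls (1.21, −0.09 to 2.51, adjusted p = 0.263, limma-voom). *qrsl1.L*, a subunit gene of the amidotransferase that turns glutamyl-tRNA into glutaminyl-tRNA in mitochondria, had 0.687 and 2.80 in Gcn5-AS embryos and 20.9 and 6.72 in controls, below the count threshold.

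Transcripts for the sensing of uncharged tRNA fell at both homeologs of *gcn1l1*, which encodes Gcn1, the partner of Gcn2. *gcn1l1.L* had 37.8 and 34.6 in Gcn5-AS embryos, against 111.5 and 95.5 in controls (log2 fold change −1.51, −2.32 to −0.70, adjusted p = 0.0310). *gcn1l1.S* had 57.0 and 55.1 against 140.5 and 108.9 (−1.15, −1.93 to −0.37, adjusted p = 0.0809). The 2 calls, both of *gcn1l1*, are of 8 models tested on this list, beside 4.17% of all models. The list holds Gcn1, eIF2 kinases, eIF2 and eIF2B, and no other model on it was called. Of the 8, 7 were lower with a median of −0.90, and *eif2ak4.L*, encoding Gcn2, had 8.93 and 12.1 against 11.8 and 22.9 (−0.49, −1.77 to 0.80).

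On the list of Atf4 and genes known to respond to amino acid shortage in mammals, 4 of 22 tested models rose and 1 fell, beside 4.46% and 4.17% of all models. The risen ones were *vldlr.L*, a lipoprotein receptor gene, with 245.9 and 210.2 in Gcn5-AS embryos against 76.7 and 104.9 in controls (adjusted p = 0.0344), *cebpb.S* (61.1 and 56.0 against 21.4 and 18.8, adjusted p = 0.0579) and *cebpg.L* (112.0 and 69.1 against 35.4 and 35.0, adjusted p = 0.0665), which encode C/EBP transcription factors, and *ddit4.L*, an inhibitor gene of mTORC1 signalling (435.6 and 349.3 against 189.2 and 196.3, adjusted p = 0.0927). The S homeologs of *cebpg* and *ddit4* were not called. *cebpg.S* had 39.8 and 17.7 against 24.7 and 10.8, with overlap (log2 fold change 0.50, −0.62 to 1.62). *ddit4.S* had 207.5 and 232.6 against 162.4 and 165.4 (0.42, −0.30 to 1.14). *cebpb.L*, below the count threshold, had 13.7 and 9.34 against 5.36 and 5.38. The proline synthesis gene *pycr1.L* fell, with 5.50 and 21.5 against 38.1 and 44.4 (−2.03, −3.24 to −0.82, adjusted p = 0.0496, limma-voom), and without Gcn5-AS X its value was −0.90 (adjusted p = 0.547). *atf4.L* itself had 129.8 and 154.1 against 151.7 and 95.5, with overlap. Its homeolog *atf4.S* had 36.4 in both Gcn5-AS libraries against 67.0 and 37.7 in controls (−0.53, −1.41 to 0.35), without overlap and without a call. *asns.L*, a widely used indicator of this response that encodes asparagine synthetase, had reads in control X only. Its 1.61 normalised counts there equal what a count of 0 allows for, so its level cannot be compared between groups. The list median was 0.21, and −0.07 without control Y. None of the 7 calls on these lists was kept under scaling by total reads, without control X or without control Y, and without Gcn5-AS X that of *gcn1l1.L* alone was kept (adjusted p = 0.0899). The fold changes of the lost calls kept their direction, and those of *gcn1l1.L* were −1.66 under total reads, −1.39 without control X and −1.61 without control Y. For *cebpb.S* they were 1.33, 1.598 and 1.44 in the same settings.

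**Figure D5:**
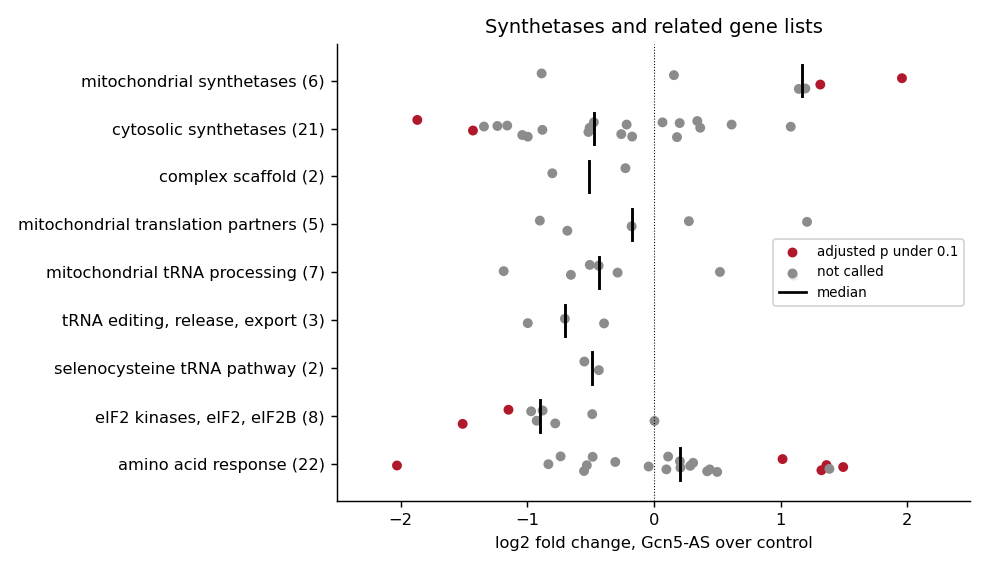
Log2 fold change of Gcn5-AS over control (x axis) for tested models of the synthetases and of 7 related lists, with the number of models in parentheses. Red points have an adjusted p under 0.1, grey points do not, and black bars are list medians, which lie at 1.17 for mitochondrial and −0.47 for cytosolic synthetases and at −0.90 for the list of eIF2 kinases, eIF2 and eIF2B. That list also holds *gcn1l1*, the gene of both its called models.

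Further synthetase models carry names outside the choice rule, and their values were seen before they were singled out. *yars2-like.L* had 147.0 and 159.7 in Gcn5-AS embryos, against 83.6 and 118.3 in controls (log2 fold change 0.64, −0.11 to 1.40). The groups did not overlap, and it was not called (adjusted p = 0.305). *lars2-like.L* had 13.7 and 11.2 against 13.9 and 13.4, and *farsa.1* had 132.6 and 131.7 against 99.7 and 122.4. With these 3 models added, the mitochondrial median was 0.89 over the models tested. Of 38 synthetase names looked for, 15 had no row, among them the cytosolic *aars*, *eprs*, *hars*, *wars* and *yars*, and were not analysed here.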

How the data were processed

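The authors mapped single-end reads with STAR to *X. laevis* genome JGI 9.1, allowing 1 mismatch, and ran DESeq. The counter, strand setting, annotation release and tool version were not given in the sources used here. Thus reads of antisense or overlapping genes may not be told apart. The deposited table holds a signal per gene model, namely read counts divided by size factors and averaged within each group. Its log2 fold changes, p-values and adjusted p-values are the authors' own comparison and were not used. It does not list counts per library.

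In each mean, reads of 2 libraries enter as whole numbers divided by size factors. All 21410 Gcn5-AS and 21721 control means above 0 had 1 solution in whole reads (relative tolerance 3e-14), which gave reads and size factors (1.46 and 1.07 for the Gcn5-AS libraries X and Y, 1.87 and 0.744 for the controls). After rescaling, these factors differed from medians of ratios of the recovered reads by at most 1.04%. The procedure was tested on simulated data. Within a group, X is the library with the larger factor.

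Limma-voom (limma 3.58.1, R 4.3.3) was fitted to the recovered reads of models with a mean normalised count of at least 10, with group as the sole term. Tests were two-sided, with Benjamini-Hochberg adjustment over 11272 models and a threshold of 0.1, the false discovery rate of the study. Given fold changes and intervals are those of this fit. Negative binomial count models were not run.

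Members and lists were chosen with earlier results of these data known. Named genes are the models called and their homeologs, the 5 highest and 5 lowest fold changes of each set, *kat2a*, and called models and smallest p-values of the lists. The remaining synthetase models, *aimp2.S*, *qrsl1.L*, *eif2ak4.L*, *atf4.L*, *atf4.S*, *cebpg.S*, *ddit4.S*, *cebpb.L* and *asns.L* were named after their values were seen. Alternatives were scaling by total reads or by reads outside the 10 most abundant models, count minimums of 1 and 50, limma with a trend on log2 of normalised counts plus 1, an adjusted p under 0.05, the log2 ratio of group means plus 1, summed homeologs, *tarsl2* moved or left out, and leaving out each library. Medians with 3 names outside the rule were added after seeing the data, and 1 further model is not reported here. Python 3.11.15, numpy 2.4.6 and pandas 2.3.3 were used.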

Additional observations from a re-analysis of the deposited data

How the results depend on the processing

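The 2 models called higher became 0 with scaling by total reads, 1 with scaling by reads outside the 10 most abundant models, 1 with homeologs summed and 1 at an adjusted p under 0.05, and ranged between 0 and 4 without single libraries. The 2 called lower became 1 with scaling by total reads and 1 at a count minimum of 50, and ranged between 0 and 3 without single libraries. The cytosolic median of −0.47 was −0.69 with scaling by reads outside the 10 most abundant models and −0.062 at a minimum of 50, and lay between −0.63 and −0.35 without single libraries. The mitochondrial median of 1.17 was −0.045 at a minimum of 1, 0.64 with homeologs summed, 0.78 for the ratio of group means plus 1 and 0.89 with 3 names outside the rule added, and lay between 0.37 and 1.34 without single libraries. The difference between the medians, 1.64, was 0.44 at a minimum of 1, 1.09 with homeologs summed, 1.21 for the ratio of means and 1.26 with the names added, and lay between 1.00 and 1.69 without single libraries. Signs were followed model by model for the 5 highest and 5 lowest fold changes of each set. Among these they turned for *farsa.L* (−0.020) and *tarsl2.S* (−0.090) with scaling by reads outside the 10 most abundant models. They also turned for *tarsl2.S* with total reads (−0.064), for *tarsl2.S* (−0.17) and *gars.L* without Gcn5-AS X, and for *ears2.S* without control X. None of these models was called. Signs of further models turned too. *nars.S* was −0.092 at a minimum of 1, and 17 of 21 cytosolic models were lower with scaling by reads outside the 10 most abundant models. Over single libraries left out, *gars.L* ranged between −0.13 and 0.85, *ears2.S* between −0.20 and 1.65 and *tarsl2.S* between −0.17 and 0.44. In all models, total reads scaling called 19 higher and 171 lower, reads outside the 10 most abundant models 194 and 639, a minimum of 50 gave 320 and 197, and single libraries left out gave 6 to 1421 higher and 76 to 836 lower, against 503 and 470. Over all models, calls were fewest without control X and most without Gcn5-AS Y. Synthetase calls lost or gained in these fits are therefore not particular to the synthetases. The causes were not tested. No paired analysis was possible because the group means do not tie a library to a replicate number. Models such as *kars.S* and *ears2.S* rest on few reads. With 1 library left in a group, that library was taken to vary like the others.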
